A study of Mus musculus with 2 samples.

Results

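The transcripts described here belong to the MHC class I pathway of the mouse: the light chain B2m, the heavy chains H2-K1, H2-D1, H2-T23 and H2-M3, the peptide loading genes Tap1, Tap2, Tapbp and Erap1, and the transcriptional regulator Nlrc5. These 10 genes were chosen by name, and 11 probes carried their symbols, out of 19316 named genes and 23473 probes in the table. All 10 had a value on both arrays, as did 13735 genes in all. RNA came from extracellular vesicles in the supernatant of murine cytotoxic T lymphocytes (CTL), which destroy virus-infected and tumour cells, after 7 days of culture. In both groups the supernatant had been concentrated and deproteinized over a 750 kDa ultrafiltration membrane and loaded on a DEAE column, a positively charged resin that holds negatively charged particles. The groups are the fraction eluted at 0.5 M NaCl and the fraction eluted at 0.3 M NaCl, with 1 single-colour array (Cy5) each. The sources used here do not state the strain, and so the H2 haplotype, the age of the animals, how the cells were stimulated or how many preparations were pooled. Without replicates there is no test, and every difference is that of 1 pair of arrays.

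MHC class I molecules show samples of a cell's proteins, cut into peptides, to CD8+ T cells. The proteasome makes the peptides, the Tap1 and Tap2 transporter carries them into the endoplasmic reticulum, Erap1 trims them, and Tapbp (tapasin) holds an empty heavy chain and B2m next to the transporter until a peptide fits. Nlrc5 switches on class I genes through a conserved promoter module, and interferons raise the whole pathway in most cells, T cells included.

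The promoters are shown because class I genes are known for this shared module, and because H2-K1 and H2-D1, which had the largest differences in opposite directions among the 10 genes, can be set beside each other. Each sequence is the 180 bases before the RefSeq start, read 5′ to 3′ on the gene's own strand from RefSeq assembly GRCm38.p6. H2-K1 had 2 starts, and the window of the downstream one is shown. The regions are chr2:122147507-122147686 (+ strand) for B2m, chr17:34000334-34000513 (- strand) for H2-K1, chr17:35262914-35263093 (+ strand) for H2-D1, chr17:37270054-37270233 (+ strand) for H2-M3 and chr17:34187376-34187555 (+ strand) for Tap1. Capitals mark matches, on either strand, to GGGANTCCC and GGGANTTTC (forms of the NF-kB site), TTTCACTTC and GAAANNGAA (forms of the interferon response element, whose matches can overlap), TGACG (the core of a cyclic AMP response element) and CCAAT.
B2m: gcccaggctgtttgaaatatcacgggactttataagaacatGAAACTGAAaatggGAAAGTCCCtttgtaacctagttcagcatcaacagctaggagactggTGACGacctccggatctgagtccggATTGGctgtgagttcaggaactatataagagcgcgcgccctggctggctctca
H2-K1: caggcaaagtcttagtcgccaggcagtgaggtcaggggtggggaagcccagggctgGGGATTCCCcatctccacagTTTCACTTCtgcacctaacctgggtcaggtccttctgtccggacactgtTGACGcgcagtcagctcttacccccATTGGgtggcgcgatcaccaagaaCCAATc
H2-D1: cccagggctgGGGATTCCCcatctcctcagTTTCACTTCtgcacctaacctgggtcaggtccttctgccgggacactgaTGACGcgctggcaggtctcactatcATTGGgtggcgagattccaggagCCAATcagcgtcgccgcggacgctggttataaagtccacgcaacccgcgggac
H2-M3: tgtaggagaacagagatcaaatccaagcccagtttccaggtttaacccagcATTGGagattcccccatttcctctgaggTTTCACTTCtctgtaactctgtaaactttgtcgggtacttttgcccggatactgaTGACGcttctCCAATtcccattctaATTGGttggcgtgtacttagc
Tap1: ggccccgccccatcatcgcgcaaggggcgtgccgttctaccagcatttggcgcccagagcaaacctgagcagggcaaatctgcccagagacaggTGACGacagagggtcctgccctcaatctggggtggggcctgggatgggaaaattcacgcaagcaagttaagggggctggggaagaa

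H2-K1 and H2-D1 shared an unbroken run of 40 bases in these windows, while B2m shared at most 7 with any of the 3 heavy chain windows. GGGANTCCC was found in H2-K1 and H2-D1 and in 0.426% of the 32851 windows of that length in the table. TTTCACTTC stood in H2-K1, H2-D1 and H2-M3, against 0.274% of windows. B2m held GGGANTTTC (0.676% of windows) and GAAANNGAA (4.89%), and GAAANNGAA was also in H2-T23 and Erap1. TGACG was in 5 of the 8 members with a window (14.8% of windows) and CCAAT in 6 (27.5%). A match describes letters only. Tap2 and Nlrc5 had no entry in the promoter table.

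Values are deposited intensities on a linear scale, in whole numbers. A difference is the log2 value at 0.5 M less that at 0.3 M, after each array's median over the 16154 probes with a value on both arrays was subtracted. The 0.5 M array had a median of 26 and the 0.3 M array one of 32, and centring removed that shift of -0.30. B2m, H2-K1 and H2-T23 were well above the middle of both arrays, Tapbp and Tap1 were near it, and Tap2, Erap1, Nlrc5, H2-M3 and H2-D1 were dim. Brightness depends on the probe as well as the transcript, so levels are not ranked between genes.

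**Figure D1:**
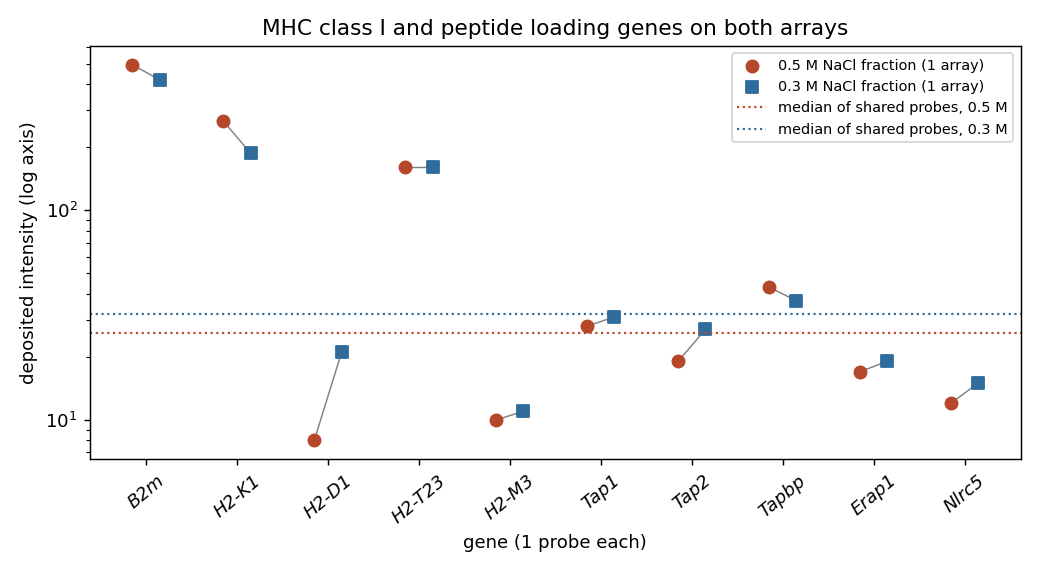
Deposited intensity (log axis) of the 10 class I and loading genes on the 0.5 M array (circles) and the 0.3 M array (squares), 1 probe a gene and no error bars because each fraction has 1 array. B2m, H2-K1 and H2-T23 stand well above the dotted medians of shared probes (26 at 0.5 M and 32 at 0.3 M), and H2-D1 has the widest gap, 8 at 0.5 M against 21 at 0.3 M.

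B2m, the light chain that every classical class I molecule needs, had an intensity of 494 at 0.5 M and 418 at 0.3 M. Its probe lay at percentile 94.3 of valued probes on the 0.5 M array and 94.0 on the 0.3 M array. The centred difference was 0.54 (1.45-fold higher at 0.5 M), and it lay between 0.24 and 0.54 over all settings. B2m was thus the brighter at 0.5 M whichever scaling was used, by less than 2-fold in each.

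H2-K1, a classical heavy chain that presents peptides to CD8+ T cells, had an intensity of 266 at 0.5 M and 187 at 0.3 M. The difference was 0.81 (1.75-fold higher at 0.5 M). It was 0.51 as deposited, 0.66 with quantile normalization and 0.66 with loess. This was the highest difference of the 10 genes in each of these settings, at percentile 90.3 of all measured genes with centring.

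H2-D1, the other classical heavy chain measured, had an intensity of 8 at 0.5 M and 21 at 0.3 M. The difference was -1.09, so H2-D1 was 2.13-fold lower at 0.5 M and was the only one of the 10 genes past 2-fold. The probe lay at percentile 13.3 of valued probes on the 0.5 M array and 44.9 on the 0.3 M array. Rounding to whole numbers alone leaves the difference anywhere from -1.22 to -0.97, and a pseudocount of 16 brought it to -0.43. The annotation gave no transcript accession for this probe. H2-K1 and H2-D1 lay on opposite sides of 0 under every scaling, though the H2-D1 value rests on a dim probe. Any bearing of their promoter sequences on the difference between fractions was not tested.

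H2-T23 encodes the heavy chain of Qa-1, a nonclassical molecule recognised by the CD94/NKG2 receptors of NK and T cells. Its intensity was 161 at 0.5 M and 161 at 0.3 M, which is 0 as deposited and 0.30, the size of the shift itself, after centring. H2-M3, which presents N-formylated peptides of bacteria and mitochondria, was dim, with 10 at 0.5 M and 11 at 0.3 M (0.16, from 0.02 to 0.30 through rounding). For both, the centred difference was no larger than the shift that centring removed. Heavy chain genes are close relatives, the sources used here give no probe sequences, and reading of one chain's transcript by another's probe was not checked.

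Of the peptide loading genes, Tapbp, the tapasin bridge between transporter and heavy chain, had an intensity of 43 at 0.5 M and 37 at 0.3 M (0.52, and 0.22 as deposited). Its other probe had no value at 0.5 M and an intensity of 5 at 0.3 M, so only 1 of 2 Tapbp probes gives a difference. Tap1 had 28 at 0.5 M and 31 at 0.3 M (0.15, but -0.15 as deposited). Tap2, the other chain of the transporter, had 19 at 0.5 M and 27 at 0.3 M (-0.21, and -0.51 as deposited). The transporter chains thus lay on either side of 0 with centring and both below 0 as deposited. Erap1, the trimming peptidase, had 17 at 0.5 M and 19 at 0.3 M (0.14, and -0.16 as deposited). Nlrc5, the class I transactivator, had 12 at 0.5 M and 15 at 0.3 M (-0.02, from -0.13 to 0.09 through rounding). For Tap1, Erap1 and H2-M3 the sign depends on whether the arrays are centred.

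**Figure D2:**
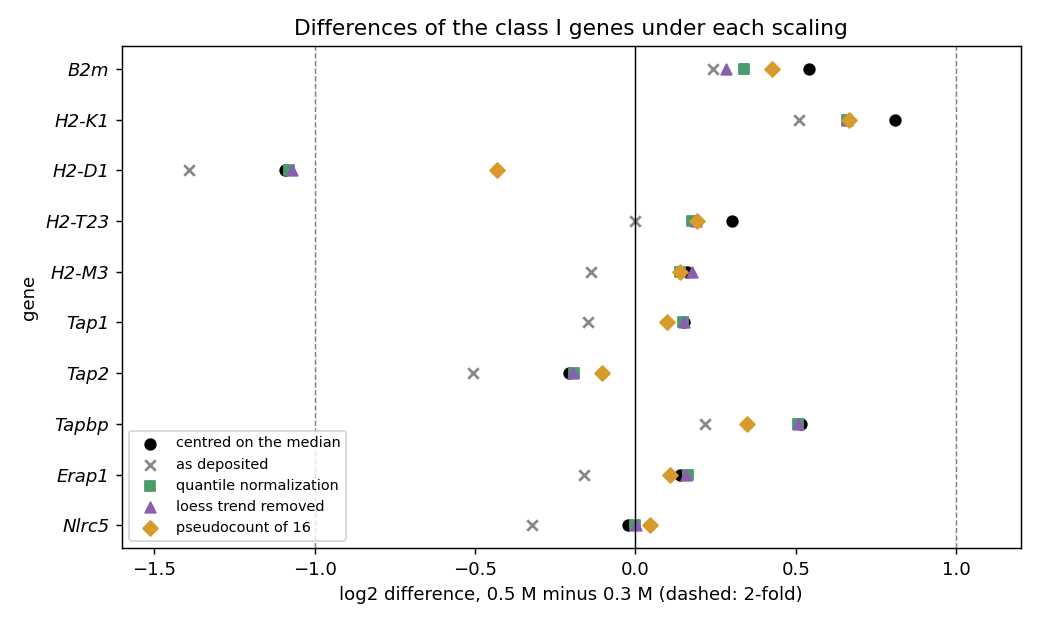
Log2 difference (0.5 M minus 0.3 M) of each class I gene with centring, as deposited, with quantile normalization, with a loess trend removed and with a pseudocount of 16; dashed lines mark 2-fold. B2m, H2-K1 and Tapbp are above 0 in all 5, H2-D1 and Tap2 are below 0 in all 5, H2-M3, Tap1 and Erap1 are below 0 only as deposited, H2-T23 is at 0 as deposited, and Nlrc5 changes side between scalings.

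Over all 10 genes the median difference was 0.16, against 0.05 over all 13735 measured genes. Of the 10, 7 lay above 0, where 53.8% of all measured genes did, and 3 below (46.2%). At least 2-fold higher were 0 of 10 (5.1% of all measured genes) and at least 2-fold lower 1 of 10 (2.77%). As deposited, 3 lay above 0 (30.7% of all measured genes), 6 below (65.3%) and 1 (H2-T23) at 0, and the medians were -0.14 for the 10 genes and -0.25 for all measured genes. With quantile normalization 7 of 10 were above 0 (48% of all measured genes), and with loess 8 of 10 (49.7%). The count of all measured genes past 2-fold also turns with the scaling, from 701 higher and 380 lower with centring to 282 higher and 1204 lower as deposited.

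The only error that can be had is how far separate probes for 1 gene disagree. Its pooled SD was 0.58 over 635 genes with several probes, 0.55 over the 358 kept by the brightness filter and 0.61 over the 277 dimmer ones. The difference of 8 of the 10 class I genes lay within 0.58 of the all-gene median. H2-K1 and H2-D1 lay outside it. The differences of all 13735 measured genes had an SD of 0.57, about the same size. Their share within 0.58 was not counted, so the 8 of 10 is not read as particular to the class I genes. This SD leaves out the variation between vesicle preparations, and a larger number of vesicles of a kind cannot be told apart from more RNA per vesicle.

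The brightness filter kept a gene that was as bright as the median gene on either array. Kept were 5 of the 10: B2m, H2-K1, H2-T23, Tapbp and Tap1. Tap1 reached the median on the 0.5 M array alone, and the other 4 did so on both. H2-D1, H2-M3, Tap2, Erap1 and Nlrc5 were under it, so any reading of the regulator, of the trimming enzyme and of the transporter's other chain rests on dim probes.

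**Figure D3:**
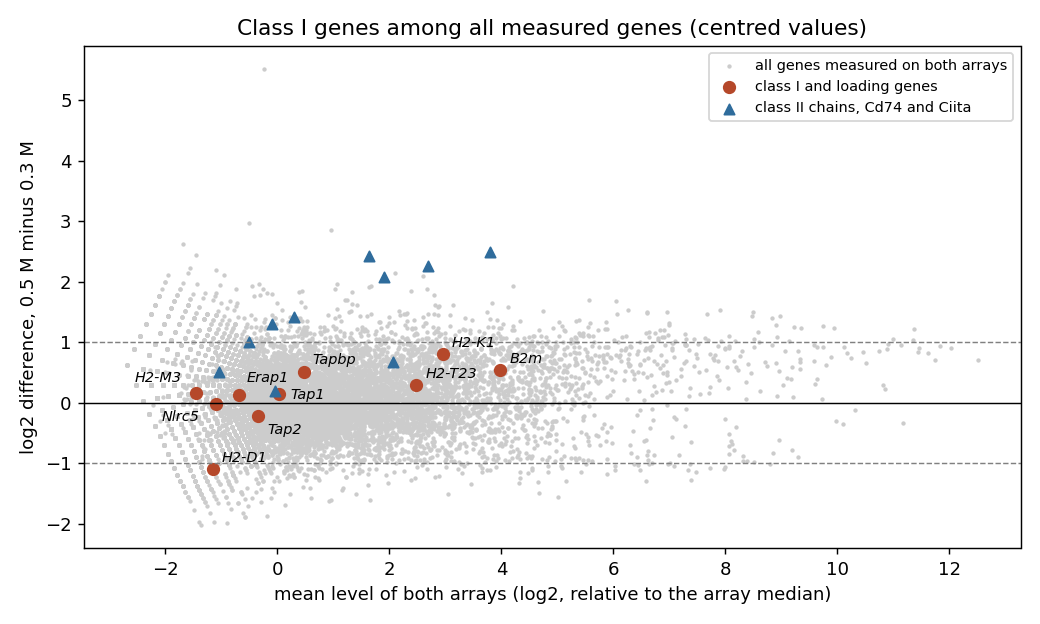
Mean centred log2 level of both arrays (x axis) against the log2 difference, 0.5 M minus 0.3 M (y axis), for the 13735 genes measured on both arrays (grey), the class I and loading genes (circles) and the class II chains with Cd74 and Ciita (triangles). The class I genes lie between -1.09 (H2-D1) and 0.81 (H2-K1), while H2-Aa, Cd74, H2-Ea and H2-Eb1 lie above 2. The lowest of the class II list is H2-Ob at 0.20.

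Genes of the MHC class II pathway, which serves helper T cells, show how far antigen presentation genes could differ between these arrays. Of 10 class II pathway genes, listed after their values were seen and all measured, 7 were at least 2-fold higher at 0.5 M (5.1% of all measured genes) and 0 at least 2-fold lower (2.77%), with a median of 1.36 and of 1.06 as deposited (0.16 and -0.14 for the class I genes). H2-Aa, a class II alpha chain, had 863 at 0.5 M and 188 at 0.3 M (2.50). Others of the list differed less. H2-Ab1 was dim, with 15 at 0.5 M and 13 at 0.3 M (0.51). H2-Ob had 27 at 0.5 M and 29 at 0.3 M (0.20, and -0.10 as deposited). H2-DMb1 was at 0.68. H2-Oa, with 26 at 0.5 M and 16 at 0.3 M, only just met the 2-fold rule (1, and 0.58 with a pseudocount). The class II regulator Ciita had 38 at 0.5 M and 19 at 0.3 M (1.30, and 0.82 with a pseudocount), while its relative Nlrc5 was at -0.02. The difference between the class I and class II lists was not tested, since it would need replicate arrays.

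Counts for the wider pathway cover whole lists, and the genes named from each are mainly the kept genes with the most extreme differences. The brightness filter accepts a gene bright on 1 array alone, so such a gene can enter through the array where it is high. Of the genes named from these lists, Tapbpl, H2-T24, Ciita and Thop1 reached it on the 0.5 M array alone. Mogs and H2-M10.6 reached it on the 0.3 M array alone. The immunoproteasome and the standard catalytic subunits had medians above 0 under every scaling. Of the 7 immunoproteasome and activator genes, which replace or cap the standard proteasome in immune cells, 6 were measured and kept. Their median was 0.61, and 5 lay above 0 (53.8% of all measured genes). At least 2-fold higher was 1 (5.24% of kept genes) and at least 2-fold lower 0 (2.35%). Psmb9, an interferon-induced catalytic subunit, had 1374 at 0.5 M and 733 at 0.3 M (1.21, and 0.91 as deposited). Psmb8, another such subunit, had 2090 at 0.5 M and 1542 at 0.3 M (0.74). The probes of Psme1, a subunit of the activator cap, had 1704 and 464 at 0.5 M, against 1243 and 350 at 0.3 M (0.73). Psme3, a nuclear activator, was the member below 0, with 46 at 0.5 M and 89 at 0.3 M (-0.65).

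All 3 standard catalytic subunits lay above 0 with centring, where 53.8% of all measured genes did. Psmb7 had 107 at 0.5 M and 61 at 0.3 M (1.11), Psmb6 had 2908 at 0.5 M and 2286 at 0.3 M (0.65), and Psmb5 had 2453 at 0.5 M and 2293 at 0.3 M (0.40). Their median was 0.65, and 0.14 with loess, where Psmb5 was at -0.10.

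Tap1, Psmb8, Psmb9 and Tap2 are neighbours within the class II region of chromosome 17, in the order Psmb9, Tap1, Psmb8, Tap2. The 300-base promoter windows of Tap1 and Psmb9, which are read in opposite directions, overlap by 275 bases, so the Tap1 sequence printed above lies within both. Psmb9 had a difference of 1.21 and Tap1 of 0.15. With the values as deposited they were 0.91 and -0.15. Any bearing of the shared promoter on these differences was not tested.

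Chaperones that fold heavy chains or take part in loading had 10 of 12 genes measured, with 6 above 0 (53.8% of all measured genes) and a median of 0.27. Past 2-fold were 0 in either direction, where 5.1% of all measured genes were higher and 2.77% lower. At such shares 0 in a short list is not read as a result. Tapbpl, a tapasin relative that edits peptides, had 34 at 0.5 M and 24 at 0.3 M (0.80). Bcap31, a membrane protein of the endoplasmic reticulum involved in class I export, had 414 at 0.5 M and 328 at 0.3 M (0.64). Mogs, a glucosidase that trims new glycans, had 22 at 0.5 M and 43 at 0.3 M (-0.67). Calr, the calreticulin of the loading complex, was empty at 0.5 M and had an intensity of 5 at 0.3 M. Its partner Pdia3 was dim, with 6 at 0.5 M and 8 at 0.3 M.

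Of 34 other class I and class I-like chains, 28 had a probe and 21 were measured on both arrays, with 11 above 0 (53.8% of all measured genes), 10 below, 1 at least 2-fold higher (5.1%) and 1 at least 2-fold lower (2.77%). These counts are near the shares of all measured genes (median 0.04, and 0.20 over the 12 kept). H2-T24, a nonclassical chain gene, had 47 at 0.5 M and 20 at 0.3 M (1.53, and 1 with a pseudocount). H2-M10.6, of a family known from the vomeronasal organ, had 25 at 0.5 M and 50 at 0.3 M (-0.70). H2-Q6, a Qa-2 family gene, had 66 at 0.5 M and 58 at 0.3 M (0.49). The gene past 2-fold on the lower side, named after its value was seen, was the dim H2-M10.4, with 10 at 0.5 M and 28 at 0.3 M (-1.19, and -0.57 with a pseudocount).

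Peptidases that trim or destroy peptides had 7 of 9 genes measured, 5 of them above 0 (53.8% of all measured genes), with a median of 0.22. Past 2-fold were 0 in either direction (5.1% of all measured genes higher, 2.77% lower). Rnpep, an aminopeptidase, had 53 at 0.5 M and 38 at 0.3 M (0.78). Dpp3 was at 0.37 over its probes and Thop1, which degrades class I peptides in the cytosol, at 0.35. Regulators of class I transcription had 19 of 22 measured, 10 above 0, 9 below, 1 at least 2-fold higher (Ciita, 5.1% of all measured genes) and 1 at least 2-fold lower (2.77%). These counts too are near the shares of all measured genes (median 0.04). Beside Ciita, Ifnar2, a type I interferon receptor chain, had 253 at 0.5 M and 520 at 0.3 M (-0.74), and Rfxap, a subunit of the RFX complex that binds with Nlrc5 and Ciita, had 105 at 0.5 M and 92 at 0.3 M (0.49). The regulator past 2-fold on the lower side, named after its value was seen, was Nfya, a subunit of the CCAAT-binding factor NF-Y. It was dim, with 6 at 0.5 M and 18 at 0.3 M (-1.29, and -0.44 with a pseudocount).

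Receptors that bind class I molecules, listed with relatives of such receptors, had 12 of 19 genes measured, 7 above 0 (53.8% of all measured genes). Past 2-fold were 0 in either direction (5.1% of all measured genes higher, 2.77% lower). The median was 0.15 over these 12, 0.63 over the 5 kept by the brightness filter and 0.75 with the stricter filter, so it depends on whether dim genes enter. Klra8, an NK receptor of the Ly49 family, had 244 at 0.5 M and 151 at 0.3 M (0.99). The CD8 coreceptor chains lay on opposite sides of 0, with Cd8b1 at 496 at 0.5 M and 333 at 0.3 M (0.87) and Cd8a at 2463 at 0.5 M and 3677 at 0.3 M (-0.28). Klrd1, the CD94 chain that binds Qa-1, had 186 at 0.5 M and 148 at 0.3 M (0.63), beside its ligand H2-T23 at 0.30. Its partner Klrc1 (NKG2A) had no value at 0.5 M and 16 at 0.3 M.

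As deposited, the medians of the chaperones (-0.026), the other class I chains (-0.26), the peptidases (-0.076), the regulators (-0.26) and the receptors (-0.14) were all below 0, beside -0.25 for all measured genes. With quantile normalization and with loess the chaperones, peptidases and receptors had medians above 0, and the other class I chains and the regulators medians below it.

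**Figure D4:**
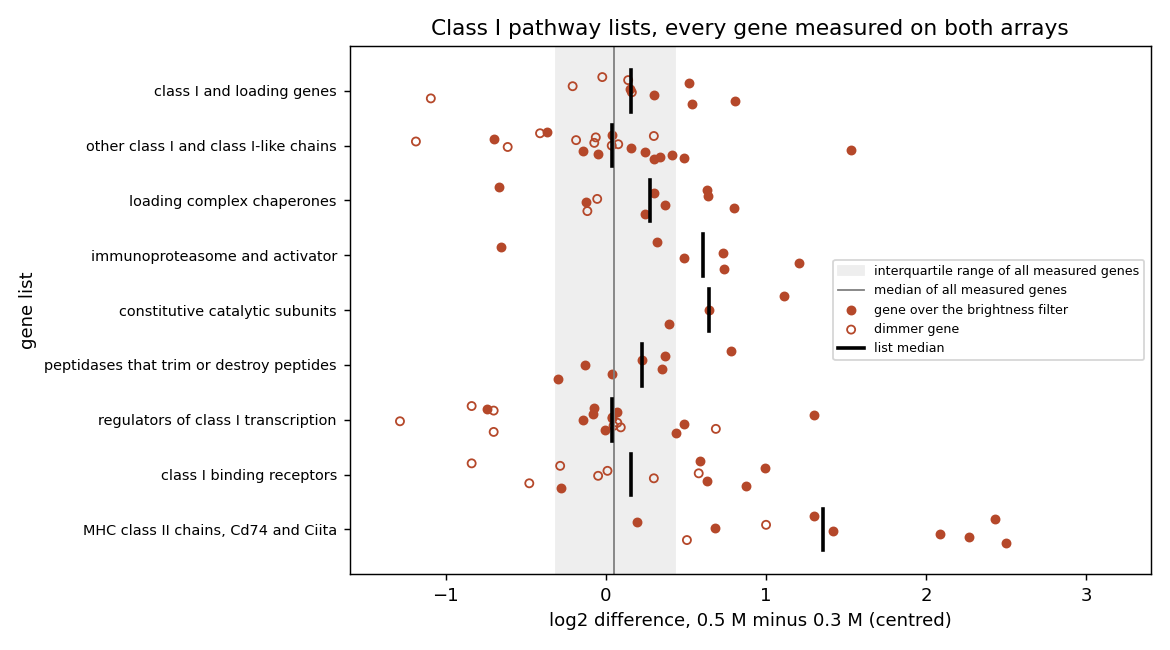
Log2 difference (0.5 M minus 0.3 M, centred) of every gene measured on both arrays in each pathway list; filled circles are genes over the brightness filter, open circles dimmer genes, black bars list medians, and the grey band the interquartile range of all measured genes. The median of the class I and loading genes (0.16, and -0.14 as deposited) lies inside the band, and those of the immunoproteasome (0.61), standard catalytic (0.65) and class II (1.36) lists lie above it.

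The label of the cells was set against marker lists. With centring 53.8% of all measured genes lay above 0, the share beside which each count above 0 in these short lists stands. Summed intensities are as deposited, with the shift of -0.30 left in. As deposited, 65.3% of all measured genes were lower at 0.5 M. A slightly lower sum at 0.5 M is therefore not read as a lower level on the centred scale. Of 12 cytotoxic T cell markers 11 were measured, with 7 above 0 and 4 below and summed intensities of 33173 at 0.5 M and 48008 at 0.3 M. Most of that sum was Tbx21 (25174 at 0.5 M, 39433 at 0.3 M), and without it the sums were 7999 at 0.5 M and 8575 at 0.3 M. Cd3d had 990 at 0.5 M and 849 at 0.3 M (0.52), and Ifng 238 at 0.5 M and 468 at 0.3 M (-0.68). Cd3e (14 at 0.5 M, 12 at 0.3 M) was dim, and Prf1 (26 at 0.5 M, 33 at 0.3 M) was near the middle of both arrays. Class I genes are made by nearly all nucleated cells, so markers of other cells are given beside them. Summed intensities were 1853 at 0.5 M and 782 at 0.3 M for the 10 measured of 12 macrophage, dendritic cell and class II markers (9 above 0). The class II genes carried that direction: the other 5 summed to 219 at 0.5 M and 386 at 0.3 M, with Mrc1 at -1.27 and 4 above 0. The 5 measured of 8 B cell markers (3 above 0) summed to 549 at 0.5 M and 381 at 0.3 M. Without Cd79b (2.10) the other 4 summed to 221 at 0.5 M and 287 at 0.3 M, with 2 above 0 and 2 below. Among them Blnk had 63 at 0.5 M and 26 at 0.3 M (1.58). Cd22, the brightest of the 4, had 126 at 0.5 M and 225 at 0.3 M (-0.54). Sums were 7931 at 0.5 M and 17151 at 0.3 M for 5 of 7 red cell markers (2 above 0), and 383 at 0.5 M and 452 at 0.3 M for 6 of 8 fibroblast and endothelial markers (3 above 0). The B cell factor Pax5 and the myeloid markers Adgre1 and Itgam had no value on either array. The part of these cells in the class I values was not tested.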

How the data were processed

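Per the labels' protocols, total RNA of each vesicle fraction was amplified as amino allyl aRNA, to which Cy5 was coupled. The authors deposited 1 intensity per probe, linear and in whole numbers. The sources used here do not state the scanner, the background correction, the authors' normalization or why some cells are empty. Values were present for 71.3% of probes at 0.5 M and 80.8% at 0.3 M, and no floor replaced an empty cell.

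Gene symbols, held by 20690 of 23473 probes, were updated through RefSeq GRCm38.p6. Log2 intensities were centred on each array's median over shared probes, and probes of a gene with values on both arrays were averaged. The brightness filter kept 7446 genes whose level, on either array, was no lower than that of the median gene. Calls used a 2-fold size rule. With 1 array a fraction no test was possible and precision is limited. All class I members are named. From each pathway list the 3 kept genes with the most extreme differences are named, and those past 2-fold (at most 5). Others were chosen after their values were seen. The members and lists were chosen with earlier results of these data known, the class II list after its values were seen. The steps were tested on simulated data, with Python 3.11.15, pandas 2.3.3 and statsmodels 0.14.6.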

Additional observations from a re-analysis of the deposited data

How the results depend on the processing

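Results were recomputed without centring (as deposited), with quantile normalization, with a loess trend taken out (span 0.3), with the brightness filter dropped or raised to the upper quartile, with a pseudocount of 16, and from the brightest probe of each gene. Among kept class I genes the median was 0.52 and lay between 0.16 (no filter) and 0.54 (stricter filter). All kept genes of the arrays had a median of 0.08 with centring. None of the kept class I genes was past 2-fold with the filter, and without it 1 was lower, H2-D1. Of the 5 kept class I genes 100% lay above 0 with centring and 60% as deposited. Of all measured genes, kept or not, 53.8% and 30.7% did so. The share over all kept genes is not given here. Tap1, among those above 0 with centring, reached the filter on the 0.5 M array alone. The 3 class I genes below 0 with centring, H2-D1, Tap2 and Nlrc5, were all under the filter. The 100% is therefore not read as a result about the class I genes. The difference of H2-D1 moved to -0.43 with a pseudocount. The median of other class I chains was 0.20 over kept genes, -0.099 as deposited and -0.0051 with the stricter filter. That of peptidases was 0.22, -0.076 as deposited and 0.040 with the stricter filter. That of class I binding receptors and their relatives was 0.63, 0.15 with no filter and 0.75 with the stricter filter. That of regulators was 0.040, -0.26 as deposited, -0.035 with quantile normalization, -0.012 with loess and -0.025 with a pseudocount. The as-deposited values differ by the constant shift of -0.30. The cause of the other changes was not tested. Dim probes limit H2-D1, H2-M3, Tap2, Erap1 and Nlrc5, where 1 intensity unit is a large step. No paired analysis was possible because each fraction has 1 array.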
